A study of Rattus norvegicus with 9 samples.

Results

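The genes described here are 42 genes of DNA replication and the cell cycle, taken by gene symbol from the deposited gene table. They comprise the MCM helicase subunits, the origin licensing and nucleotide supply genes, the cyclins and their kinases, the kinase inhibitors, the E2F and retinoblastoma genes, the mitotic kinases and checkpoint genes, and the proliferation markers Mki67 and Top2a. Of the 42, 41 had a row among the 22888 genes of the table, and all 41 passed the filter on low values and were tested among 17770 genes; E2f1 is not analysed here. RNA was sequenced from brain tissue of male Sprague-Dawley rats in 3 groups of 3 libraries. The astaxanthin group received astaxanthin (ATX), a carotenoid antioxidant, by gavage at 45 mg/kg for 7 days and then had the middle cerebral artery of a single side occluded, which is a model of ischemic stroke. The model group had the same occlusion without astaxanthin, and the sham group is labelled as sham. Tissue was taken on the day that followed, 1 day after surgery, and is described only as brain, with neither region nor side. Libraries are called by their numbers in the labels: astaxanthin 1, 2 and 3, model 1, 3 and 4, and sham 1, 3 and 5. The labels do not say that each library is a separate animal, so p-values measure only the spread between these samples, which may be technical.

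A cell that copies its genome first licenses its replication origins. In G1, Cdc6 and Cdt1 load the ring of Mcm2 to Mcm7 onto DNA, geminin (Gmnn) later blocks Cdt1, and Cdc45 joins the ring to make the active helicase, behind which Pcna clamps the polymerases to DNA. D-type cyclins with Cdk4 or Cdk6, and then E-type cyclins with Cdk2, release E2F factors from the retinoblastoma proteins, and E2F drives the transcription of many replication genes. Cyclin A and B with Cdk1 carry the cell into mitosis, while Cdkn1a (p21) stops the cycle after DNA damage. Most neurons of the adult brain have left the cycle. After ischemia, microglia, astrocytes, oligodendrocyte precursors, endothelial cells and the progenitors of the neurogenic zones can divide, and injured neurons can express cell cycle genes without dividing.

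Values are normalized reads, that is reads divided by the authors' factor for each library, and 52268061 to 76311125 reads were recovered in a library. Neuronal, astrocytic and oligodendrocytic markers were present in all 9 libraries. Model 3 stood apart, with a sum over 5 neutrophil markers of 14993 normalized reads against 984 or less in the other libraries, a sum over the 4 endothelial markers with a row of 50162 against 15267 or less, and the lowest sum over 5 neuronal markers, 65283 against 161140 or more. Astaxanthin 1 also stood apart, with a sum over 6 markers of cerebellar granule neurons of 190770 against 13287 or less. It had the highest value of 15 of the 41 members, model 3 that of 13, and model 1 that of 6, whereas sham 1 and sham 3 held the lowest values of 13 and 12 members. Sham 5 differed from the other sham libraries in markers of the choroid plexus. The sum over 5 such markers reached 113179 normalized reads there, while sham 1 had 766 and sham 3 had 616. Only astaxanthin 1 had more, with 188259, and model 4 came next after sham 5, with 15304. The part of tissue composition in the differences below was not tested. In bulk tissue fewer cells of a type and less RNA per cell cannot be told apart.

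In the sham brain the members spanned a wide range of levels. Per kilobase of transcript, Pcna was the most abundant at 1508 ± 63.9 reads per kilobase (SD, n = 3), and Bub1b, a mitotic checkpoint kinase, the least at 3.45 ± 3.08. The cyclins D1, D2 and D3, Cdk4, Cdkn1a and Cdkn1b, which act in or before G1, lay between 586 and 1214 reads per kilobase. On that scale the 13 genes of G2 and mitosis reached up to 125 ± 5.93 for Aurka, a mitotic kinase, with Top2a at 7.79 ± 6.09, Bub1 at 17.4 ± 8.97, Mki67 at 17.5 ± 9.58 and Cdk1 at 19.2 ± 17, and the ranges of mean ± SD of these last 4 overlapped. The licensing genes Cdc6, at 10.1 ± 8.47, and Cdt1, at 21.7 ± 6.93, stood at similar levels. The helicase subunits ranged from 24.2 ± 11.1 for Mcm3 to 407 ± 60.0 for Mcm7.

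The question of the first comparison was which of these genes changed after the occlusion. In model against sham 5 members rose, namely Cdt1, Mcm3, Cdkn1a, Mcm2 and Pcna, and 0 fell. They are 12.2% of the 41 members; 3.45% of all genes tested rose and 1.32% fell (limma on log2(value + 1), Benjamini-Hochberg adjusted p under 0.05). The difference of log2 means was positive for 37 of 41 members and for 9040 of 17770 genes, with a median of 0.61 for the members and 0.02 for all genes (90.2% and 50.9% positive). At an unadjusted p under 0.05, 16 members were higher, against 13.7% of all genes. In 17 members every model library lay above every sham library, 41.5% against 19% of all genes, and in 0 members every model library lay below, against 16.6% of all genes. The same 5 members rose by edgeR (3.25% of all genes), and DESeq2 added Mcm4, Mcm5, Mcm6, Gmnn, Ccnd1, Cdk2, Cdk4 and Rbl1 to make 13 (10.5% of all genes). Over the same libraries the sum over 5 of 5 monocyte and macrophage markers was 4883 to 13421 in model and 159 to 331 in sham. Ccr2 and Msr1 were at 0 in sham 1 and sham 3, but Ccr2 had 17.6 normalized reads in sham 5, between model 1 (14.9) and model 4 (26.3). The sum over 5 microglial markers was 9643 to 11106 in model and 10914 to 12852 in sham, with overlap. Of these, Tmem119 (374 to 609 in model, 1179 to 1750 in sham) and P2ry12 (187 to 275, 947 to 1041) were lower in model without overlap. Aif1, Cx3cr1 and Csf1r overlapped. Summed astrocytic markers were 182940 to 275566 in model and 52643 to 132112 in sham. Among them only Gfap was apart on its own (99814 to 201186 against 13459 to 39303). Summed endothelial markers were 14159 to 50162 against 5287 to 5986, and those of neural progenitors and neuroblasts 11590 to 13209 against 5518 to 6472. Sums for neutrophils, lymphocytes, and pericytes and fibroblasts were also higher in model without overlap. The remaining sums overlapped. The part of these cells was not tested. The calls changed when libraries were left out, for the members and for all genes. By limma the count of members was 0 without model 1, sham 1 or sham 3, 2 without sham 5, 3 without model 3, 4 without astaxanthin 2 or 3, 6 without model 4 and 7 without astaxanthin 1, and it was 9 without both model 3 and astaxanthin 1, when 8.34% of all genes rose. Over all genes the count of calls in both directions was 848, and 129 without model 1, 80 without sham 1 and 73 without sham 3. Over these fits without 1 library the highest adjusted p was 0.0804 for Cdt1, 0.0948 for Cdkn1a, 0.0951 for Mcm2, 0.102 for Mcm3 and 0.130 for Pcna.

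**Figure D1:**
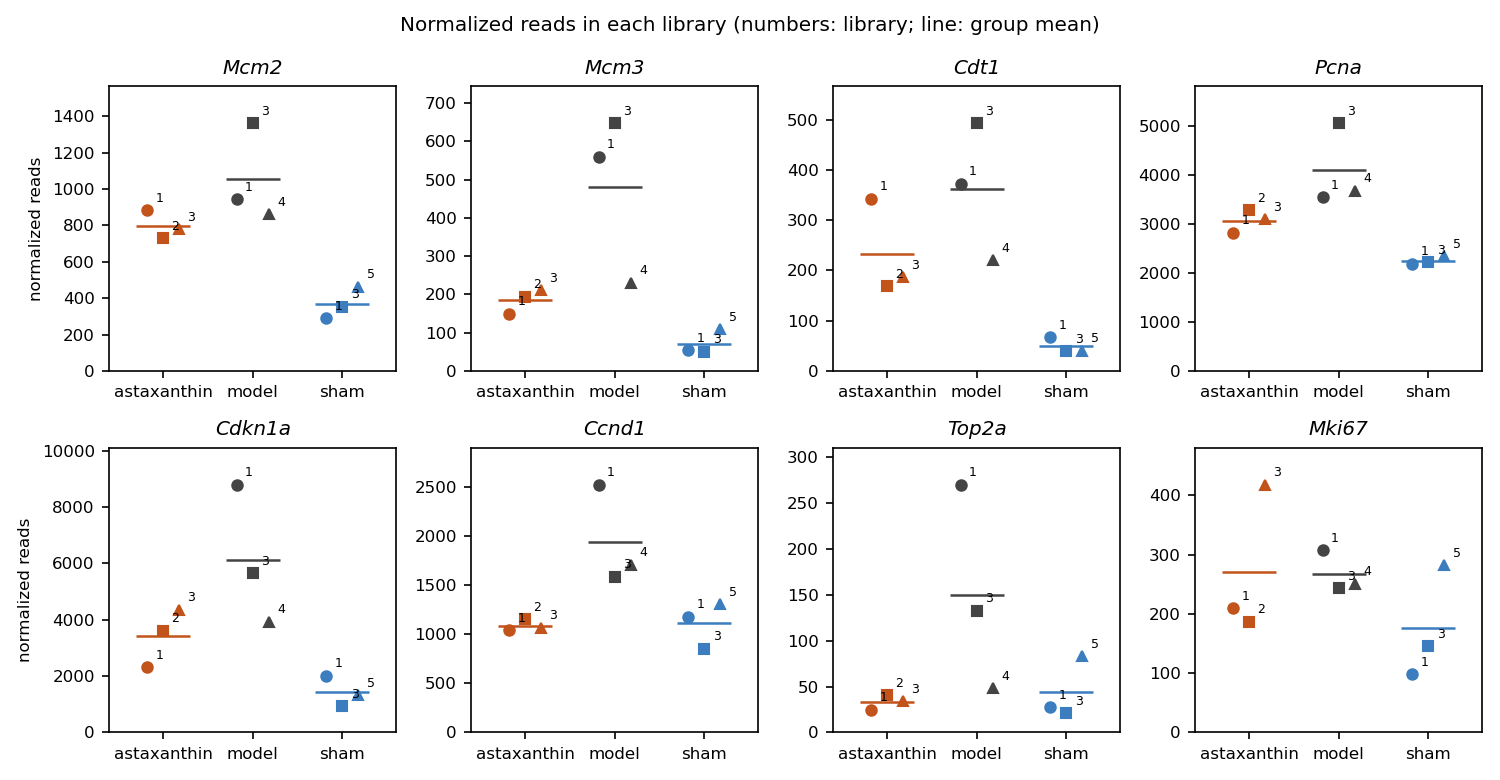
Normalized reads (vertical axis, linear from 0) of 8 members in each library, with the library number beside each point and a line at the group mean of 3 libraries. In Mcm2, Mcm3, Cdt1, Pcna and Cdkn1a all model points lie above all sham points; in Mcm3, Pcna, Ccnd1 and Top2a all astaxanthin points lie below all model points; the groups of Mki67 overlap.

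The 6 subunits of the MCM helicase, which unwinds DNA at the fork, lay higher in every model library than in every sham library, and Mcm2 and Mcm3 passed the threshold. Mcm2 had 884, 731 and 780.3 normalized reads in astaxanthin 1, 2 and 3, 943, 1363 and 862 in model 1, 3 and 4, and 291, 353 and 464 in sham 1, 3 and 5. The astaxanthin and model libraries all lay above the sham libraries, and the astaxanthin and model libraries overlapped each other. In model against sham Mcm2 rose by 1.51 ± 0.26 on the log2 scale (SE; adjusted p = 0.022), and its table coordinates on rn7 are chr4:121346434-121360847. Mcm3 (chr9:23219169-23237314) had 149.7, 194 and 212 normalized reads in astaxanthin, 560, 647 and 231 in model, and 55.0, 50.7 and 109 in sham. Here the 3 groups did not overlap at all, with the astaxanthin libraries between model 4 and sham 5. The rise in model against sham was 2.68 ± 0.48 (adjusted p = 0.023).

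The other 4 subunits did not pass. Mcm5 averaged 315 ± 171 normalized reads in astaxanthin, 457 ± 169.7 in model and 89.1 ± 63.2 in sham, and its log2 difference of 2.56 ± 0.64 in model against sham had an adjusted p of 0.0575. Mcm6 averaged 797 ± 378 in astaxanthin, 906 ± 157 in model and 399 ± 49.6 in sham, with a difference in model against sham of 1.17 ± 0.33 (adjusted p = 0.0769). Mcm4 averaged 3302 ± 1166 in astaxanthin, 2519 ± 742 in model and 1346 ± 172 in sham (0.87 ± 0.29 in model against sham, adjusted p = 0.114). Astaxanthin 1, with 4637, was the highest library of Mcm4. For Mcm7 the difference in model against sham was 0.42 ± 0.23 (adjusted p = 0.298), and Mcm7 overlaps Ap4m1 and Cops6 in the annotation, whose reads cannot be told apart from its own because the strand setting of the counting is not stated. All 6 differences stayed positive under each of the 20 alternatives to the processing. The median over the 6 subunits was 1.34, and 1.19 without model 3.

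Among the licensing genes Cdt1, the loader of the helicase, changed most. Cdt1 (chr19:50620713-50625659) had 343, 168 and 186 normalized reads in astaxanthin 1, 2 and 3, 372, 493 and 220.1 in model 1, 3 and 4, and 67.6, 39.5 and 40.4 in sham 1, 3 and 5. Every library of the occluded rats lay above every sham library. The rise in model against sham was 2.82 ± 0.45 (adjusted p = 0.0176), a ratio of means of 7.36. Its inhibitor Gmnn averaged 326 ± 81.8 in astaxanthin, 347 ± 49.6 in model and 197 ± 47.5 in sham, with a difference of 0.83 ± 0.31 that did not pass (adjusted p = 0.154), although its model and sham libraries did not overlap. Cdc6, the loading partner of Cdt1, had 125, 72.0 and 38.9 in model 1, 3 and 4 against 53.8, 12.4 and 15.5 in sham 1, 3 and 5, and these overlapped (1.64 ± 0.68, adjusted p = 0.189).

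The sequences before the start of Mcm2, Mcm3 and Cdt1 are shown because these 3 genes rose together. That of Cdk1 is shown as a single example of the mitotic genes, most of which overlapped between model and sham. They are 230 bases from RefSeq (GRCr8), 200 before the annotated start and 30 from it on, 5′ to 3′ on the strand of the gene. Capitals mark every match to 3 motifs on either strand. TTTNNCGC is an E2F-like pattern in which N is any base. TTTGAA is the core of the cell cycle homology region, and CCAAT is the core bound by NF-Y.
Mcm2, chr4:122918065-122918294, minus strand: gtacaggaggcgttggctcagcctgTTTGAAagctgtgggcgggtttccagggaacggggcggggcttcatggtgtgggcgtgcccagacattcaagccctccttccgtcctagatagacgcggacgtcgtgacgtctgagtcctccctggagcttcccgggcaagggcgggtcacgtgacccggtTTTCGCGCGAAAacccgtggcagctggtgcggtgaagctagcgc
Mcm3, chr9:30733717-30733946, minus strand: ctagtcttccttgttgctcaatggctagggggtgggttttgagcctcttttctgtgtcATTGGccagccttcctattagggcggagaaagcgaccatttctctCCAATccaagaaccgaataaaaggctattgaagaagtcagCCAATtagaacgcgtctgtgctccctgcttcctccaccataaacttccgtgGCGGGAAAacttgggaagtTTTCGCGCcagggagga
Cdt1, chr19:67529049-67529278, plus strand: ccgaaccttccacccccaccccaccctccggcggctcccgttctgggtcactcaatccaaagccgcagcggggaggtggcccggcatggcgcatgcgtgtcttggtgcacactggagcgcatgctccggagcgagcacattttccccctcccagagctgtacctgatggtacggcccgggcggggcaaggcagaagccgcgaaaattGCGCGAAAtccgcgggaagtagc
Cdk1, chr20:19265093-19265322, plus strand: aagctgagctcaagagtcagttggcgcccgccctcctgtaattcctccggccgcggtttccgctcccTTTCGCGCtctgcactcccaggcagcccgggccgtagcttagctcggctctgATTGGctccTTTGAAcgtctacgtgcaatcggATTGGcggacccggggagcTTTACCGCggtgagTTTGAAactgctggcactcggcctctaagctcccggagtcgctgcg
In Mcm2 the matches to TTTNNCGC on the strands as printed and opposite overlap. RefSeq windows of 300 bases, 250 before and 50 after the start, were matched for 31 of the 41 members.

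TTTNNCGC was found in 13 of these 31 windows (41.9%), against 4.92% of all 33469 windows and 5.83% of the 21851 of protein-coding genes. It was in the windows of all 5 MCM subunits with one, and in those of Cdt1, Gmnn, Rbl1, Rb1, Tyms, Chek1, Cdk1 and Plk1. Of the 11 windows of the mitotic cyclins, kinases and proliferation markers only 3 had it, namely Chek1, Cdk1 and Plk1. The Cdk1 sequence shown is thus not typical of those 11 for this motif. No match to TTTNNCGC was in the windows of Pcna and Cdkn1a, which also rose. A single window was matched for Cdkn1a, which had 2 isoforms, so any other start of that gene was not searched. TTTGAA was found in 8 of 31 windows (25.8%, against 18.3% of all), 7 of them among those 11. CCAAT was found in 18 (58.1%, against 37.5% of all). The member windows had a median GC content of 59.7%, against 55.0% in protein-coding genes, so base composition differs as well. A match of letters does not show that a factor binds there.

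Pcna, the sliding clamp of the replicative polymerases, rose by less but with little spread. Pcna (chr3:119498810-119502995) had 2819.9, 3277 and 3097 normalized reads in astaxanthin, 3535, 5049.7 and 3671 in model and 2183, 2216 and 2341 in sham. The 3 groups were separate, with astaxanthin between model and sham. The rise in model against sham was 0.84 ± 0.17 (adjusted p = 0.0324). Rrm2, the regulated subunit of the ribonucleotide reductase that makes deoxynucleotides, had 47.7, 85.6 and 52.3 in astaxanthin, 224, 279 and 89.7 in model and 72.6, 58.1 and 101 in sham. Only the astaxanthin and model libraries were apart in it, and the 1.23 ± 0.51 of model against sham did not pass (adjusted p = 0.191). Rrm1, the large subunit, was nearly level (0.26 ± 0.23, adjusted p = 0.546), and thymidylate synthase (Tyms) ranged from 499 to 698 in model against 477 to 793 in sham.

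None of the G1 cyclins and kinases passed. Cyclin D1 (Ccnd1), the mitogen-induced partner of Cdk4 and Cdk6, had 1041, 1152 and 1067 normalized reads in astaxanthin, 2524, 1587 and 1710.0 in model and 1178, 852 and 1303 in sham. All model libraries lay above the libraries of both other groups, which overlapped; the difference in model against sham was 0.80 ± 0.24 (adjusted p = 0.0907). Cdk4 differed by 0.61 ± 0.21 (adjusted p = 0.131) and Cdk2, the kinase of G1/S, by 1.01 ± 0.30 (adjusted p = 0.09), both without overlap of model and sham. In the annotation Cdk4 overlaps Os9, Tspan31 and Agap2, Ccnd3 overlaps Bysl, and Ccne2 overlaps Ints8. Ccnd2, Ccnd3, Cdk6, Ccne1 and Ccne2 overlapped between model and sham.

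Cdkn1a, an inhibitor of cyclin-dependent kinases, rose with the replication genes. Cdkn1a (chr20:7149217-7159585) had 2325, 3607 and 4355 normalized reads in astaxanthin 1, 2 and 3, 8789, 5657 and 3929 in model 1, 3 and 4, and 2010.3, 934 and 1316 in sham 1, 3 and 5. Every library of the occluded rats lay above every sham library, and astaxanthin 3 lay above model 4. The rise in model against sham was 2.10 ± 0.38 (adjusted p = 0.0244), a ratio of means of 4.31. The other inhibitors, Cdkn1b (p27) and Cdkn2c (p18), did not pass. Of the pocket proteins that hold E2F, Rbl1 (p107) averaged 268 ± 67.7 in astaxanthin, 359.6 ± 164 in model and 124 ± 25.3 in sham, with a difference of 1.43 ± 0.43 in model against sham (adjusted p = 0.0939). For Rb1, which overlaps Rcbtb2 and Lpar6 in the annotation, the difference was 0.38 ± 0.24 (adjusted p = 0.382).

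Of the 13 cyclins, kinases, checkpoint genes and proliferation markers of G2 and mitosis 0 passed by limma, where 3.45% of all genes tested rose, and their lowest adjusted p was 0.208. Most of their differences were positive. The median was 0.27 for the 4 S/G2/M cyclins and kinase (3 positive), 0.59 for the 7 mitotic kinases, checkpoint and anaphase genes (6 positive) and 1.21 for the 2 proliferation markers (both positive), beside 0.61 for all members. Bub1b and Aurkb counted as positive on the log2 scale although their mean normalized reads were lower in model. Bub1b averaged 14.0 ± 9.20 in model against 15.3 ± 13.7 in sham, where sham 5 was at 0. Aurkb averaged 35.3 ± 26.8 in model against 47.6 ± 63.0 in sham, where sham 3 was at 0. Among the 13 only Chek1, a checkpoint kinase that also guards replication forks, had model libraries all above sham. In the annotation Chek1 overlaps Acrv1, Aurka overlaps Fam210b and Ccna2 overlaps Exosc9, and reads of such overlaps cannot be told apart. Mki67, a marker of dividing cells, had 209, 187 and 418 normalized reads in astaxanthin, 307, 243 and 251 in model and 98.8, 146 and 282 in sham. Sham 5 lay within the range of model. Top2a, the topoisomerase that untangles chromosomes, had 24.9, 40.9 and 34.4 in astaxanthin, 270.0, 133 and 48.0 in model and 27.5, 21.0 and 82.8 in sham. Model 4 lay below sham 5, and the difference of 1.69 ± 0.74 did not pass (adjusted p = 0.208). Cdk1, the kinase of mitotic entry, had 34.7, 19.5 and 11.5 in astaxanthin, 81.0, 86.4 and 26.3 in model and 0, 44.5 and 34.2 in sham. The 0 of sham 1 allows up to 3 reads, or 3.75 normalized reads, and the fitted 2.31 ± 1.37 (adjusted p = 0.339) was 0.54 without that library. Cyclin B1 (Ccnb1) lay lower in model on average (149 ± 38.9 against 195 ± 62.4 in sham), with overlap. Whether the mitotic genes differ from the MCM subunits in their change was not tested.

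**Figure D2:**
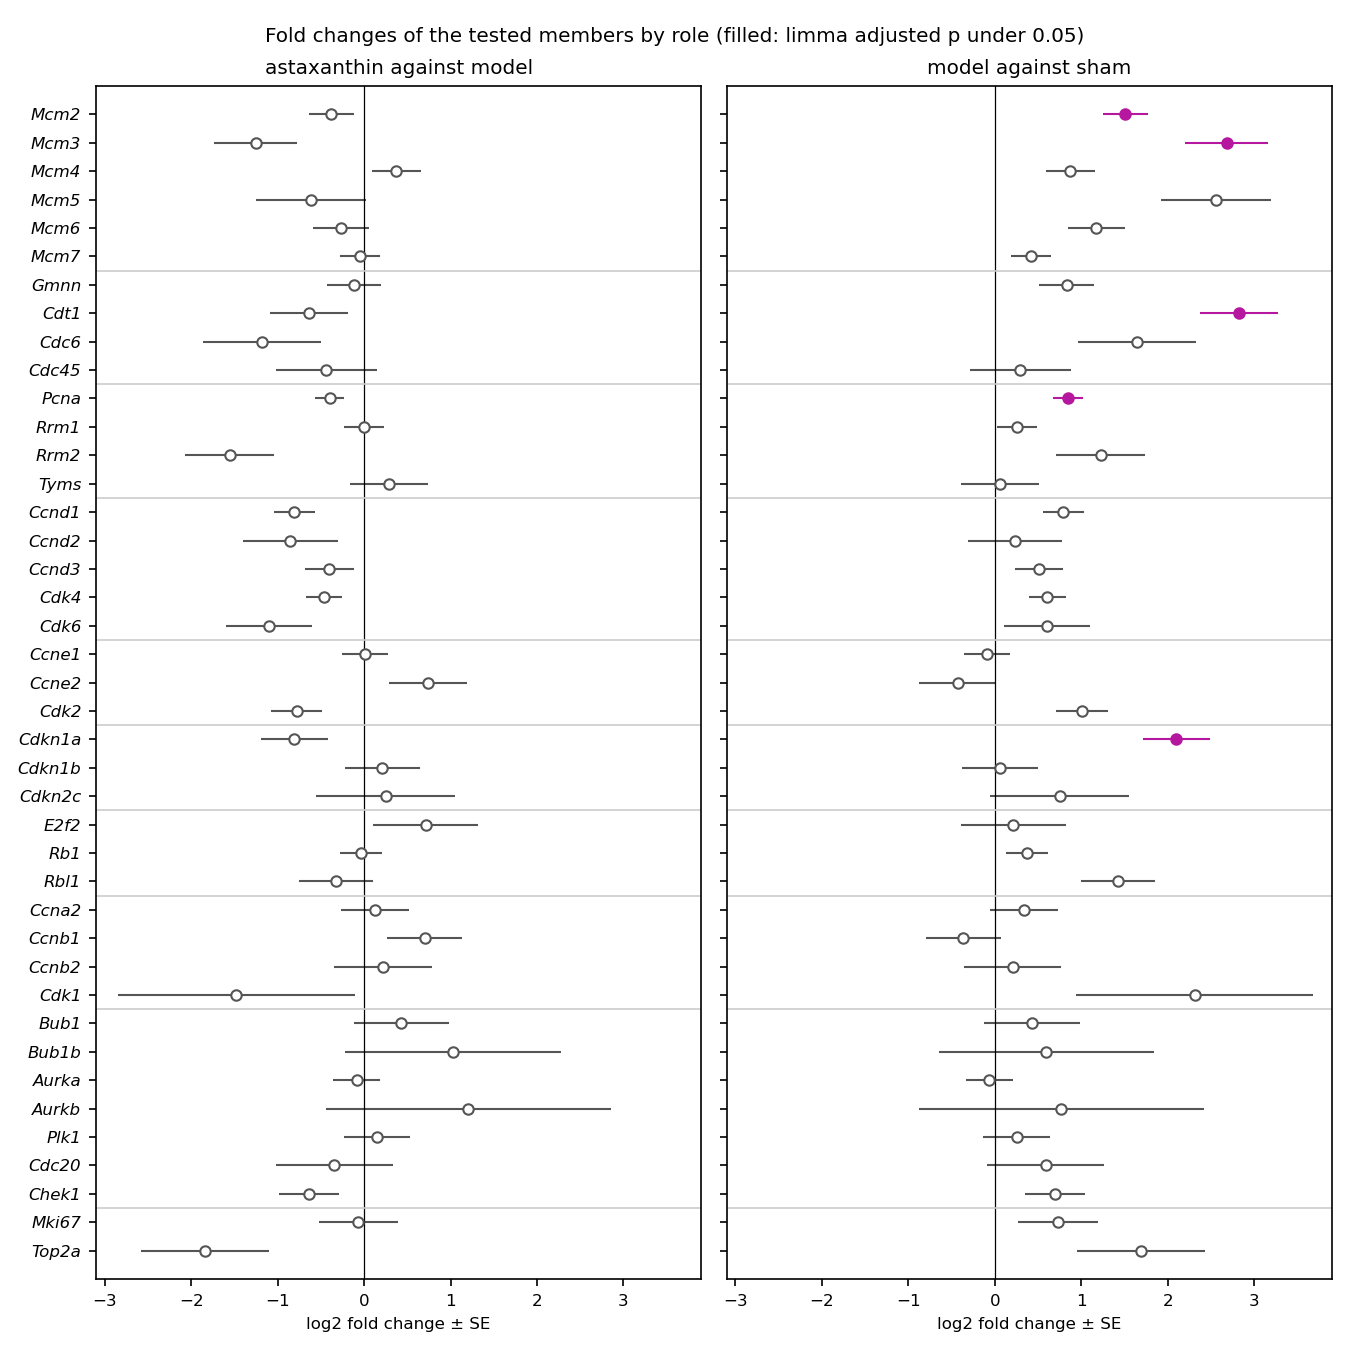
Difference of mean log2(value + 1) with its SE (horizontal axis) for 41 members, grouped by role from the MCM subunits at the top to the proliferation markers at the bottom, for astaxanthin against model (left) and model against sham (right). Filled points passed an adjusted p of 0.05: Mcm2, Mcm3, Cdt1, Pcna and Cdkn1a in model against sham, and 0 members in astaxanthin against model.

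Genes of the same pathways outside the 42 were counted in lists. Of 40 other replication genes tested (origin recognition complex, GINS, polymerases, clamp loader and others) 0 passed in model against sham by limma, where 3.45% of all genes tested rose. At an unadjusted p under 0.05, 4 of the 40 were higher and 0 lower, no larger a share than the 13.7% of all genes that were higher, and the median difference was 0.20. Of 33 other regulators 4 rose and 0 fell. These were Myc, a growth-promoting transcription factor (3.32 ± 0.57, adjusted p = 0.022), E2f5 (1.37 ± 0.27, adjusted p = 0.0285), the phosphatase gene Cdkn3 (2.56 ± 0.60, adjusted p = 0.0476) and E2f8, an atypical repressor of the E2F family. E2f8 had 28.9, 8.23 and 17.2 normalized reads in model and 0 in all 3 sham libraries, at least 5.14-fold higher against the floor of 3 reads per library (adjusted p = 0.0338). Of 29 other mitosis genes 1 rose, a share near the 3.45% of all genes. This was Ube2c, a ubiquitin-conjugating enzyme of anaphase, with 49.3, 32.9 and 43.5 in model against 5.00, 0 and 5.18 in sham (adjusted p = 0.0366). These lists, like the members, were chosen with earlier results known.

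The second comparison asked whether pretreatment changed the response. By limma 0 of 41 members passed in astaxanthin against model, and neither did any of the 17770 genes (0%); edgeR also gave 0 members and 0 genes, and DESeq2 called 204 genes, 0 of them members. At an unadjusted limma p under 0.05, 6 members were lower and 0 higher (14.6% lower, against 5.03% of all genes lower and 3.86% higher): Ccnd1, Rrm2, Cdk2, Mcm3, Top2a and Pcna. In these 6 and in Cdk6 all astaxanthin libraries lay below all model libraries, 17.1% of the members against 7.24% of all genes, and in 0 members all lay above, against 5.72%. The median difference was -0.27 for the members and -0.01 for all genes. The median of the members was -0.34 without astaxanthin 1, -0.091 without astaxanthin 2 and -0.16 without astaxanthin 3. It was -0.18 without model 1, -0.13 without model 3, -0.41 without model 4 and -0.21 without astaxanthin 1 and model 3. By edgeR it was -0.080, by DESeq2 -0.088, and -0.11 with Cdc45 taken without its transcript of 1 exon. The model libraries serve in this comparison and in model against sham.

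The log2 difference in astaxanthin against model was -0.81 ± 0.24 for Ccnd1, -1.56 ± 0.51 for Rrm2, -1.25 ± 0.48 for Mcm3, -0.78 ± 0.30 for Cdk2 and -1.84 ± 0.74 for Top2a (adjusted p = 0.548 each), and -0.40 ± 0.17 for Pcna (adjusted p = 0.559). Cdk6 had 33.6, 90.5 and 97.3 normalized reads in astaxanthin and 109, 199.6 and 137 in model, a difference of -1.10 ± 0.50 (adjusted p = 0.563). The other MCM subunits overlapped between these groups, with differences from -0.61 ± 0.64 for Mcm5 to 0.37 ± 0.29 for Mcm4, and so did Cdt1 (-0.63 ± 0.45, adjusted p = 0.636) and Cdkn1a (-0.81 ± 0.38, adjusted p = 0.567). In the lists of genes outside the 42, 0 passed. Of 29 other mitosis genes 5 were lower and 0 higher at an unadjusted p under 0.05, and all astaxanthin libraries lay below all model libraries in 10 and above them in 2, with a median of -0.39. Of 40 other replication genes 0 were lower and 2 higher at an unadjusted p under 0.05, and all astaxanthin libraries lay below in 3 and above in 4, with a median of 0.11. Of 33 other regulators 2 were lower and 1 higher, the libraries lay below in 3 and above in 1, and the median was -0.05. Of all genes 5.03% were lower and 3.86% higher at that p, and 7.24% lay below and 5.72% above without overlap. The summed monocyte and macrophage markers were 1415 to 5437 in astaxanthin, against 4883 to 13421 in model. The sum over 5 microglial markers was 6194 to 8439 in astaxanthin and 9643 to 11106 in model, without overlap. That over 5 markers of neural progenitors and neuroblasts was 3795 to 10612 and 11590 to 13209, also without overlap. The sums of all other marker lists overlapped between these groups. The part of these cells in the differences was not tested.

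**Figure D3:**
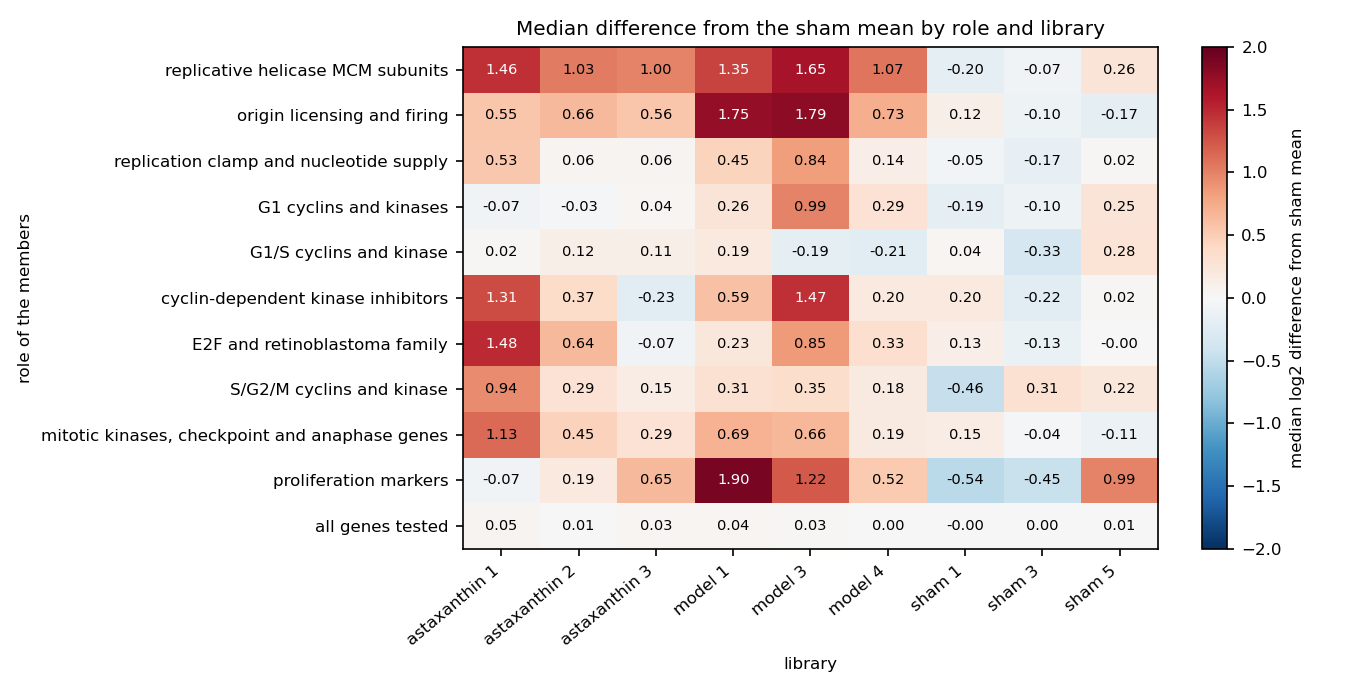
Median log2 difference from the mean of the 3 sham libraries (color and printed value) of the members of each role (rows) in each library (columns), with all genes tested in the last row. The MCM row lies between 0.997 and 1.65 in every astaxanthin and model library, while the row of the G1 cyclins and kinases lies between -0.07 and 0.04 in astaxanthin and between 0.26 and 0.99 in model.

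In astaxanthin against sham, Cdt1 and 5 of the 6 MCM subunits were higher in every astaxanthin library than in any sham library, but none passed by limma. Of all 41 members 0 passed (0.236% of all genes rose and 0.0394% fell), edgeR gave 0, and DESeq2 gave 3, Cdt1, Mcm4 and Mcm2, all higher (2.9% of all genes were). At an unadjusted limma p under 0.05, 10 members were higher and 0 lower (24.4%, against 6.99% of all genes higher). In 9 members every astaxanthin library lay above every sham library (22%, against 13% of all genes): Mcm2, Mcm3, Mcm4, Mcm5, Mcm6, Cdt1, Pcna, Cdkn1a and Rbl1. The difference was 2.19 ± 0.45 for Cdt1 (adjusted p = 0.116), 1.25 ± 0.29 for Mcm4 (adjusted p = 0.153), 1.13 ± 0.26 for Mcm2 (adjusted p = 0.154) and 1.29 ± 0.38 for Cdkn1a (adjusted p = 0.25). For Ccnd1 it was -0.01 ± 0.24 (adjusted p = 0.992). The sham libraries serve in this comparison and in model against sham.

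The mean of several members in the astaxanthin group rested on astaxanthin 1. Cdkn2c, an inhibitor of Cdk4 and Cdk6, had 821, 128 and 75.2 normalized reads in astaxanthin 1, 2 and 3, 149.9, 277 and 114 in model and 85.1, 107 and 108 in sham. Its difference in astaxanthin against model was 0.25 ± 0.80, and -0.77 without astaxanthin 1. E2f2, an activating E2F, had 405, 136 and 82.6 in astaxanthin and 157 or less in every other library. Cyclin E2 (Ccne2) had 1433, 471 and 437 in astaxanthin 1, 2 and 3, and 326 to 470.3 in model and 426 to 655 in sham. Cdkn1b had 5315, 1791 and 1833 in astaxanthin 1, 2 and 3, 1710.3 to 3389 in model and 1842 to 2462 in sham. In both genes astaxanthin 1 was the highest of all 9 libraries. Ccnd2, in contrast, was lowest there, with 1579, 5838 and 8040.1 in astaxanthin, 7455, 7671 and 7611 in model and 4391, 6529 and 9262 in sham. Gabra6, which encodes a GABA receptor subunit of cerebellar granule neurons, stood in that library at 44128 normalized reads, and at 256 or less in the other 8. The part of cerebellar tissue in these values was not tested.

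**Figure D4:**
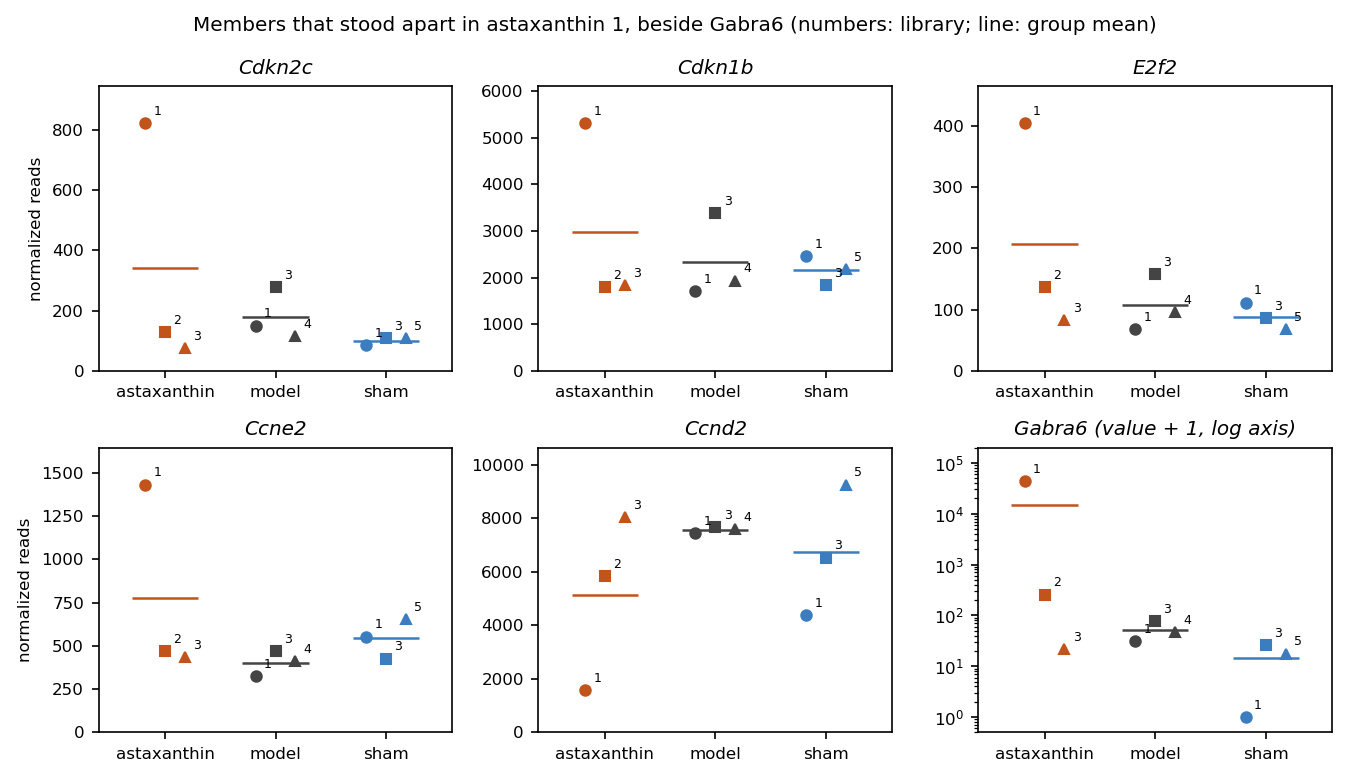
Normalized reads (linear axes from 0) of 5 members in each library, and Gabra6 as value + 1 on a log axis, with library numbers and group means as lines. Astaxanthin 1 is highest in Cdkn2c, Cdkn1b, E2f2, Ccne2 and Gabra6 and lowest in Ccnd2.

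The row of Cdc45, the activator of the helicase, could not be read as Cdc45 alone. It had 3751, 2358 and 3493 normalized reads in astaxanthin, 2267, 12950.0 and 2608 in model and 2909, 3628 and 3911 in sham. Model 3 was far above the rest. Between 95.4% and 99.7% of these reads belonged to a transcript of 1 exon that the table files under the symbol (chr11:82211475-82214992), outside the span of its transcripts of 19 or 20 exons (chr11:82185473-82210619). The transcript of 1 exon had 13017 normalized reads in model 3, whereas those of 19 or 20 exons together had 23.1 to 166.7 in any library. Without it, the log2 difference was 0.61 in astaxanthin against model, against -0.44 ± 0.59 with it, and -0.02 in model against sham, against 0.30 ± 0.59 with it. In the order of genes in RefSeq (GRCr8) Cdc45 lies between Ufd1 and Cldn5, and no row of the gene or transcript table carries the symbol Cldn5. Which gene the transcript of 1 exon belongs to was not tested.

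**Figure D5:**
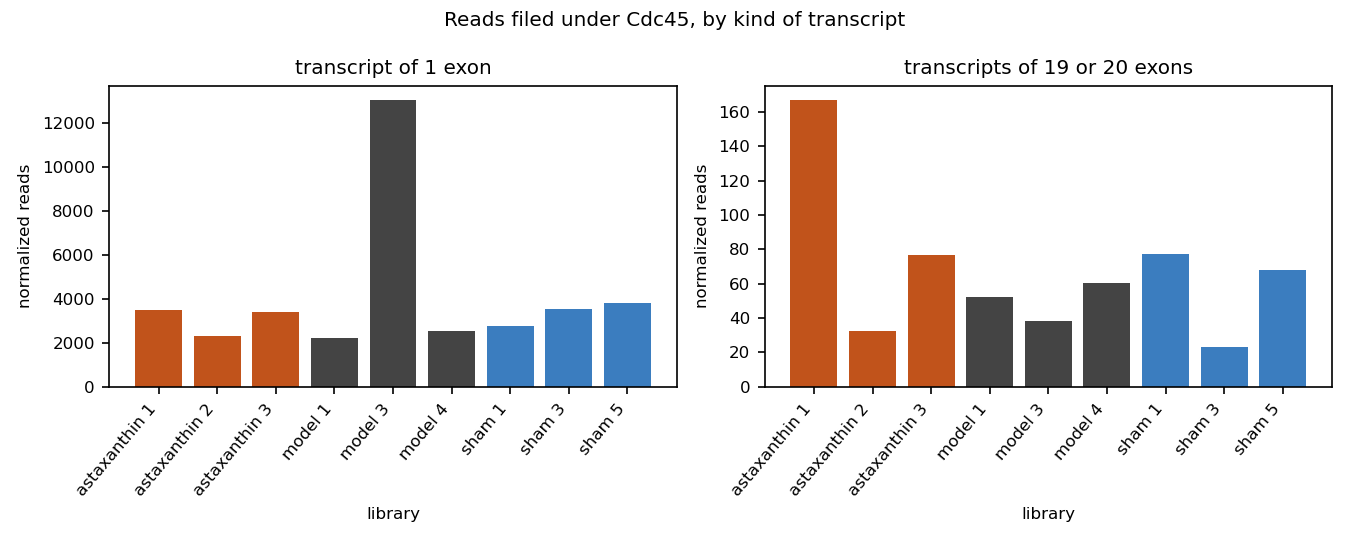
Normalized reads (bars, linear axes from 0) filed under Cdc45 in each library, for the transcript of 1 exon (left) and for the transcripts of 19 or 20 exons together (right); the 2 axes differ in scale. Model 3 stands at 13017 on the left, and on the right the 9 libraries range from 23.1 to 166.7.

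At the level of transcripts the reads of the members were divided over 80 annotated isoforms, of which 70 were above 0 in a library and 63 were tested. Of these 0 passed in any comparison by limma, against 0.689% of 32824 transcripts in model against sham, 0.0518% in astaxanthin against model and 0.204% in astaxanthin against sham. The 5 members that rose had either 1 isoform, as Mcm2, Mcm3, Cdt1 and Pcna, or a steady split, as Cdkn1a, whose longer isoform took 72.9% to 78.6% of its reads. In 11 members the leading isoform differed between libraries. The reads of Mcm7 lay on Mcm7-201 in astaxanthin 2 (96%) and sham 5 (94.9%) and on Mcm7-202 in the other 7 libraries (94% or more). For Ccnd1, isoform 202 took 65.7% in astaxanthin 1 and 58.4% in model 1, and 1.9% to 7.4% elsewhere. In neither gene did the shares follow the groups.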

How the data were processed

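RNA sequencing of rat brain gave 9 libraries in 3 groups of 3, per the labels. The authors deposited 1 table of 22888 genes and 1 of 45893 transcripts, whose signal values are reads already divided by a factor per library. Each value is a whole multiple of the smallest value of its library within 0.01 (100% of entries), so whole reads were recovered. The tools FastQC, STAR, StringTie and DESeq2 and the build rn7 are named, per the submitters' processing notes, without versions or settings. The normalization of the deposited factors and the use of strand are not given in the sources used here.

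The main test was limma 3.58.1 (R 4.3.3, trend and robust moderation, two-sided) on log2(value + 1) over all 9 libraries, for the 17770 genes that reached 0.5 in 3 libraries or more, with Benjamini-Hochberg adjustment and a threshold of 0.05. Fold changes subtract group means on that scale, carry an SE and understate changes of low genes. A count of 0 allows up to 3 reads, and such floors cover counting error only. With 3 libraries against 3 the smallest p of an exact permutation test (two-sided) is 0.1, and none is given. Alternatives were edgeR 4.0.16 and DESeq2 1.42.0 on the recovered reads, other scalings, pseudocounts and filters, fits of 6 libraries, a replicate block, and fits without libraries. The script was tested on simulated data. The members, the lists and the naming rule (members past the threshold, a fixed set of 8 members, and up to 4 genes of each list past the threshold) were chosen with earlier results of these data known. Members named beyond that were chosen by role or after their values were seen. A further list of related genes is not reported here.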

Additional observations from a re-analysis of the deposited data

How the results depend on the processing

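In astaxanthin against model the count of members past the threshold stayed at 0 under all alternatives run. In model against sham it was 5 under both scalings, both filters, pseudocount 0.1, edgeR and limma without robust moderation, 6 with only the 6 libraries compared, 13 by DESeq2, 0 with the replicate block and 9 without astaxanthin 1 and model 3, and it ranged from 0 to 7 when 1 library was left out. In astaxanthin against sham it was 3 by DESeq2. Over all genes, model against sham gave 848 calls, 2943 by DESeq2, 0 with the block, 2632 without astaxanthin 1 and model 3, and 73 to 1611 with 1 library left out; astaxanthin against model gave 0, 204 by DESeq2 and 0 to 3 with 1 library left out; astaxanthin against sham gave 49, 781 by DESeq2, 0 by edgeR, 4 with the 6 libraries compared, 75 at pseudocount 0.1, 0 with the block, 691 without astaxanthin 1 and model 3, and 1 to 149 with 1 library left out. The median of the members in model against sham was 0.86 with the replicate block. Correlations of same-numbered deviations lay between -0.123 and 0.067, and those of libraries with different numbers between -0.171 and 0.160. With so few same-numbered pairs this cannot show whether the replicate numbers of the labels pair the libraries. One transcript of a member, Cdt1-201, passed in model against sham at pseudocount 0.1, and 0 to 1 passed with 1 library left out. Signs turned as follows. Cdc45 without its transcript of 1 exon (chosen after seeing the data) gave -0.018 in model against sham, 0.61 in astaxanthin against model and 0.59 in astaxanthin against sham; without astaxanthin 1 and model 3 it gave -0.51 in model against sham and 0.24 in astaxanthin against model; with the block it gave 0.16 in astaxanthin against sham. Leaving out 1 library, Cdc45 ranged from -0.51 to 0.75 in model against sham, from -0.89 to 0.37 in astaxanthin against model and from -0.27 to 0.07 in astaxanthin against sham. Ccnd2 in model against sham ranged from -0.037 to 0.50. Mki67 in astaxanthin against model was 0.025 by DESeq2, 0.031 by edgeR, 0.11 with the block and 0.0098 without astaxanthin 1 and model 3, and ranged from -0.42 to 0.16. Cdkn2c was -0.41 in astaxanthin against model and -0.016 in astaxanthin against sham without astaxanthin 1 and model 3, and ranged from -0.77 to 0.95 and from -0.016 to 1.70. Ccnd1 in astaxanthin against sham was 0.019 under TMM, 0.073 with the block, 0.020 without astaxanthin 1 and model 3, and ranged from -0.19 to 0.12. In all, 10 of 41 members changed sign in some of 20 alternatives in model against sham, and 16 in each of the other comparisons. The causes were not tested. Depth limits Cdk1, Bub1b, Aurkb and Cdc6, which had few reads in some libraries.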
